A study of Mus musculus with 24 samples.

Results

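Expression of the high mobility group box genes Hmgb1, Hmgb2 and Hmgb3 and of the H3.3 histone genes H3f3a and H3f3b was followed in the mouse retina after hypoxic preconditioning. The array annotation placed 16 of 45037 probe sets on these 5 of 18193 genes, a probe set being a group of short probes that together report on a transcript. The annotation gave 6 of the 16 probe sets to 1 gene, 3 to Hmgb2 and 1 each to Hmgb3, H3f3a and H3f3b. The other 10 matched several loci. All 5 probe sets of Hmgb1 also matched the locus Gm21596, and 5 H3.3 probe sets matched H3f3a, H3f3b, H3f3c, Gm6749, Gm10257 and Gm12657 alike, so these 10 are given by their probe set names and are not assigned to 1 gene. The target of 1420376_a_at is listed by RefSeq as an H3f3b transcript.

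HMGB proteins bind and bend DNA without regard to its sequence and help to assemble complexes on chromatin, and HMGB1 that has left the cell acts as a danger signal on receptors such as RAGE. Hmgb2 is best known from proliferating cells and Hmgb3 from stem and progenitor cells. H3.3 is the histone H3 variant that is placed into chromatin outside of DNA replication, which makes it the main supply of new H3 in cells that no longer divide, such as photoreceptors. H3f3a and H3f3b encode the same H3.3 protein under different promoters.

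BALB/c mice, all homozygous for the leucine variant of Rpe65 that raises light sensitivity, were kept for 6 h at 6% oxygen and returned to room air in darkness. Retinas were taken at 0, 2, 4 or 16 h of reoxygenation, and retinas of normoxic mice of the same strain at the same times. Each of the 8 groups had 3 arrays, and each of the 24 arrays carried a pool of 3 retinas from 3 mice, 72 mice in all. Pools mix animals and all retinal cell types, so that fewer cells of a type and less RNA per cell cannot be told apart.

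The promoters show how the regulatory sequences of these genes differ. Windows were taken from RefSeq (build GRCm38.p6) for all 5 genes, and the 250 bases before the annotated start are given 5' to 3' on the gene's strand for the genes that had a probe set of their own. Capitals mark CCAAT boxes, or their reverse complement ATTGG, the binding motif of the factor NF-Y. The windows lie at chr8:57511593-57511842 on the plus strand for Hmgb2, chrX:71555667-71555916 on the plus strand for Hmgb3, chr11:116024505-116024754 on the minus strand for H3f3b and chr1:180813606-180813855 on the minus strand for H3f3a.
Hmgb2: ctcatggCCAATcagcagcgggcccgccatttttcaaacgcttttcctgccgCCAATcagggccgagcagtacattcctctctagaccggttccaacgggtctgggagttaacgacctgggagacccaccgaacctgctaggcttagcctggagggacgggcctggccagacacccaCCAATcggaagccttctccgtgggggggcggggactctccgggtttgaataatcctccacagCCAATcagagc
Hmgb3: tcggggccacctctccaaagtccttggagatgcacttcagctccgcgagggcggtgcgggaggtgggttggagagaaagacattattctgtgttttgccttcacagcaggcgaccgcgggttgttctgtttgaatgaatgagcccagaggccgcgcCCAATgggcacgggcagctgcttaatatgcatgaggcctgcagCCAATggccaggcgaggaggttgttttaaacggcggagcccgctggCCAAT
H3f3b: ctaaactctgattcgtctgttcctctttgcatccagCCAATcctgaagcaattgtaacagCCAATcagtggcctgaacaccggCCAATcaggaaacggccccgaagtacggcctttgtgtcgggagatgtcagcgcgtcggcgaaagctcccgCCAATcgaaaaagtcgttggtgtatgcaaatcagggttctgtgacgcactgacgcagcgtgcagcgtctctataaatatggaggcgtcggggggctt
H3f3a: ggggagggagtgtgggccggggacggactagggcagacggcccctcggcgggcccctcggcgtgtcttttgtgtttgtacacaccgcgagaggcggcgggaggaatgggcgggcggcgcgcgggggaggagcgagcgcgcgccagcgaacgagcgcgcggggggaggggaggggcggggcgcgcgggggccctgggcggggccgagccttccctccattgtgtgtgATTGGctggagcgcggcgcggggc
The window of Hmgb2 held 4 CCAAT boxes, that of H3f3b 4, that of Hmgb3 3 and that of H3f3a 1. Of the 2 annotated promoters of Hmgb1, the first held 3 and the second none. Among 32851 promoters searched in the same way on both strands, 33.9% had a CCAAT box and 2.79% had 3 or more.

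Other short motifs were sparser. The core of the hypoxia response element was searched as ACGTG and as GCGTG on both strands. ACGTG was not among the letters of the windows of Hmgb2, Hmgb3, H3f3a and H3f3b, occurred 1 time in the first and 2 times in the second promoter of Hmgb1, and was held by 16.6% of all promoters. GCGTG occurred 1 time each in the windows of H3f3a, H3f3b and the second promoter of Hmgb1, and in 28.2% of all promoters. The H3f3b window also held the CRE-like TGACG 2 times and TATAA 1 time, which 17.8% and 22.8% of all promoters had. The TGACG and ACGTG matches of the first Hmgb1 promoter overlap. The 2 ACGTG matches of the second Hmgb1 promoter are 1 stretch, CACGTG, read on both strands. A match is a description of the letters and not a site of binding.

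Signals are RMA values on the log2 scale, and testing at a given time required a mean of at least 6.69 in hypoxia or in normoxia, the trough between the low and the high peak of all signals. In the tissue taken as retina, rod photoreceptor markers were among the strong signals, with a mean over 6 genes between 13.34 and 13.43 in the 6 arrays at 0 h and none of them called. Markers of the retinal pigment epithelium, which adjoins the retina, differed at 0 h. Of the 7 genes 6 were tested and called higher, but 5 of them reached the signal threshold only in the hypoxic arrays and had to differ to be tested, so that no more is read from their count. Ttr, which reached it in both groups, was at 12.19 after hypoxia and 8.44 in normoxia (log2 change 3.75). The mean signal over the 7 genes was 9.13 to 9.20 in hypoxic and 5.98 to 6.60 in normoxic arrays. At 2 h the mean was 7.51 to 8.80 in hypoxic and 6.52 to 8.04 in normoxic arrays, and none of the 6 tested passed (3 when normoxia 2 h replicate 2 was left out, 2 when hypoxia 2 h replicate 3 was). Lens markers varied from array to array and were lowest in normoxia 0 h replicate 2, at 7.72 against 10.83 to 12.70 in the other 5 arrays at 0 h. That array and normoxia 16 h replicate 3 stood farther from the rest than the other normoxic arrays. The part of pigment epithelium and lens RNA in the results was not tested.

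Immediately after hypoxia 9 of the 15 probe sets tested had changed, 6 higher and 3 lower. Over all probe sets tested at 0 h, 32.4% were called, 15.2% higher and 17.2% lower. At 2 h, 6 of 15 were called, 4 higher and 2 lower, beside 16.6% of all tested, with 9.19% higher and 7.38% lower. At 4 h, 1 of 15 was called against 1.43% of all. At 16 h none of the 15 was called by limma, as for 0% of all tested. An unadjusted p under 0.05 was found in 3 of the 15, beside 1173 of all 18425 tested. The median log2 change over the 15 at 0 h was -0.10, beside -0.01 over all tested. Hmgb2 and H3f3b made up the upper end of the range, which ran from -0.49 to 1.96, and the Hmgb1 probe sets all had values below 0. From 0 h through 16 h, hypoxic and normoxic signals did not overlap in 12, 7, 5 and 4 of the 15, beside 45.4%, 34.8%, 27.3% and 11.1% of all tested. Several of the 16 probe sets report on the same transcripts, so these counts are not counts of separate genes.

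**Figure D1:**
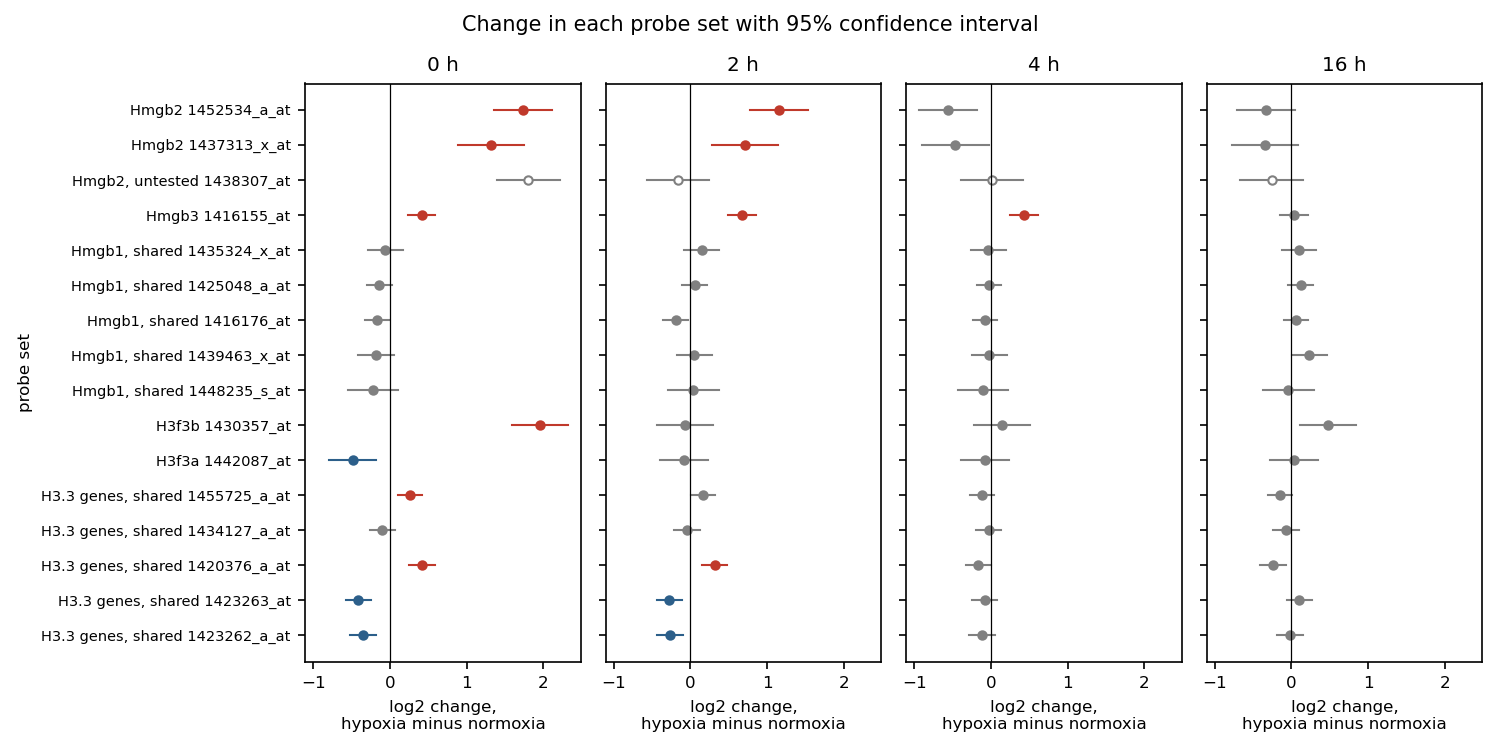
Log2 change (hypoxia minus normoxia, x axis) of each of the 16 probe sets (y axis) at 0, 2, 4 and 16 h, with lines for the 95% confidence interval; red marks those called higher, blue those called lower, grey those not called, and the open circle the Hmgb2 probe set that was below the signal threshold. Among the tested probe sets the largest rises stood at 0 h, 1.96 in 1430357_at of H3f3b and 1.74 in 1452534_a_at of Hmgb2. At 16 h no probe set was called.

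Hmgb2 was strongly raised at 0 h and still raised at 2 h. In 1452534_a_at, the probe set of Hmgb2 with the highest mean, the 3 hypoxic arrays at 0 h read 11.66, 11.69 and 11.75 and the normoxic arrays 9.67, 10.22 and 9.98. Every hypoxic array lay above every normoxic one. Hmgb2 was 3.34-fold higher, a log2 change of 1.74 (SE 0.18, adjusted p = 3.45e-07), which ranked 49 from the top of 18799 probe sets tested. At 2 h the hypoxic arrays read 10.99, 9.92 and 10.37 and the normoxic arrays 9.54, 9.08 and 9.20. The groups stood apart here too, with a wider spread in hypoxia (SD 0.54 against 0.04 at 0 h), and Hmgb2 was 2.22-fold higher (log2 change 1.15, SE 0.18, adjusted p = 0.000308). Without hypoxia 2 h replicate 1, the highest array, the log2 change was 0.87 and was still called. The mean signal of the pigment epithelium markers was 8.28, 8.80 and 7.51 in hypoxic replicates 1, 2 and 3 at 2 h, an order that was not that of Hmgb2. In normoxic replicates 1, 2 and 3 at 0 h it was 5.98, 6.60 and 6.27, which was the order of Hmgb2. The orders matched in no other group. In normoxic replicates 1, 2 and 3 at 2 h the marker mean was 6.52, 8.04 and 7.33, the reverse of the order of Hmgb2. The part of these markers' source in the values of Hmgb2 was not tested.

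At 4 h the order was the other way round. The hypoxic arrays of 1452534_a_at read 8.77, 8.84 and 8.59 and the normoxic arrays 9.20, 9.44 and 9.24, so that all hypoxic arrays lay below the normoxic ones. The log2 difference of -0.56 (SE 0.18) did not pass the adjustment (adjusted p = 0.127), although it did without hypoxia 2 h replicate 1 (adjusted p = 0.0472), an array that enters only through the shared spread. It ranked 84 from the bottom of 18499. At 16 h the hypoxic arrays read 9.39, 9.49 and 9.19 and the normoxic arrays 9.78, 9.69 and 9.59. They stood below the normoxic arrays again, with a log2 difference of -0.33 (SE 0.18, adjusted p = 0.787).

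The other Hmgb2 probe sets were also higher at 0 h. In 1437313_x_at the hypoxic arrays at 0 h read 10.47, 10.48 and 10.55 against 9.08, 9.29 and 9.17 in normoxia. Hypoxia stood above normoxia, 2.50-fold (log2 change 1.32, SE 0.21, adjusted p = 5.23e-05). By 2 h the values were 10.02, 8.78 and 9.37 against 8.81, 8.32 and 8.91, which overlap, and the log2 change of 0.71 (SE 0.21, adjusted p = 0.0233) rested on single arrays. It was 0.40 without hypoxia 2 h replicate 1 (adjusted p = 0.183) and 0.72 without hypoxia 2 h replicate 3 (adjusted p = 0.0556). Leaving out normoxia 2 h replicate 2 gave 0.53 (adjusted p = 0.119). At 4 h the log2 difference was -0.46 (adjusted p = 0.284) with all hypoxic arrays below, and at 16 h -0.35 (adjusted p = 0.806) with overlap.

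The Hmgb2 probe set 1438307_at stayed under the signal threshold and was not tested. Its hypoxic arrays at 0 h read 4.76, 5.09 and 5.93 and its normoxic arrays 3.53, 3.44 and 3.40, again without overlap. The difference of means was 1.81, and at 2 h the mean was 3.43 in hypoxia and 3.59 in normoxia. The rise at 0 h was thus seen in all 3 Hmgb2 probe sets and that at 2 h in the pair with the stronger signals. Real-time PCR of Hmgb2 in the paper was also higher at 0 h, marked significant in its main text and not significant in its supplement.

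The effects of the 1437313_x_at and 1452534_a_at probe sets of Hmgb2 were compared array by array. At 0 h the rise in 1437313_x_at was smaller by a log2 difference of -0.42 (SE 0.14), which missed the threshold (adjusted p = 0.0514). Among probe sets of 1 gene set against the strongest probe set of their gene, 10.9% differed at 0 h. When probe sets with several genes were added to that test, an alternative chosen after seeing the data, the adjusted p was 0.0486. The difference at 2 h was -0.44 (adjusted p = 0.128).

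**Figure D2:**
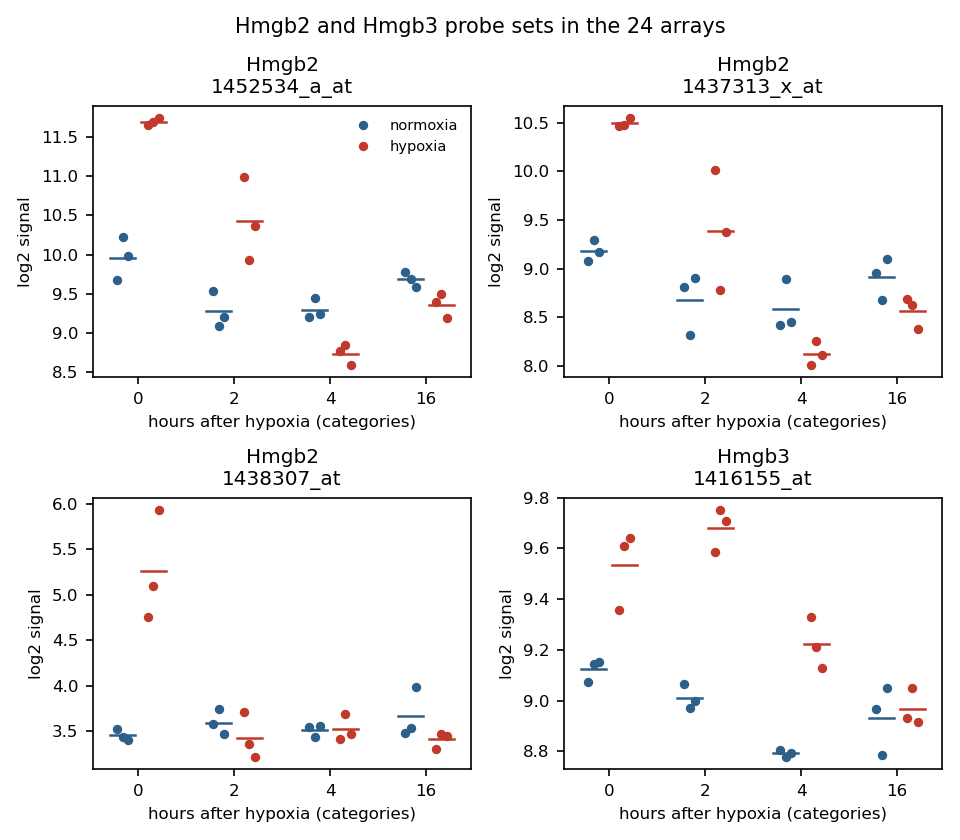
Log2 signal (y axis) of the Hmgb2 and Hmgb3 probe sets in the 24 arrays at each time of reoxygenation (x axis, evenly spaced categories); points are arrays, horizontal lines group means, red hypoxia and blue normoxia. The hypoxic arrays of 1452534_a_at sit at 11.66 to 11.75 at 0 h and at 8.59 to 8.84 at 4 h, above and then below the normoxic arrays of the same time, and Hmgb3 stays above normoxia until 4 h.

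Hmgb3 had a smaller and longer rise. At 0 h the hypoxic arrays of 1416155_at, which targets the Hmgb3 RefSeq transcript, read 9.36, 9.61 and 9.64 and the normoxic arrays 9.07, 9.14 and 9.15. At 2 h they read 9.59, 9.75 and 9.71 against 9.06, 8.97 and 9.00. At 4 h they read 9.33, 9.21 and 9.13 against 8.80, 8.78 and 8.79. At these 3 times all hypoxic arrays of Hmgb3 lay above all normoxic ones. The log2 change was 0.41 (SE 0.09, adjusted p = 0.000925) at 0 h, 0.67 (SE 0.09, adjusted p = 3.82e-05) at 2 h and 0.43 (SE 0.09, adjusted p = 0.0114) at 4 h, which made it 1.33-fold, 1.59-fold and 1.35-fold higher.

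The rise of Hmgb3 at 2 h ranked 144 from the top of 18587 and that at 0 h 1680 of 18799. Hmgb3 was the only one of the 15 probe sets called at 4 h, and without hypoxia 4 h replicate 1 this call was lost (log2 change 0.38, adjusted p = 0.101). At 16 h the hypoxic arrays read 8.93, 9.05 and 8.91 and the normoxic arrays 8.97, 8.78 and 9.05. These overlapped, with a log2 difference of 0.03 (95% confidence interval -0.15 to 0.21).

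The 5 probe sets that match Hmgb1 and other loci showed no call at any time. At 0 h their log2 differences ran from -0.06 to -0.22. The lowest adjusted p was that of 1416176_at, whose hypoxic arrays read 10.75, 10.85 and 10.83 and whose normoxic arrays read 10.97, 10.99 and 10.99. Hypoxia lay below normoxia without overlap, by a log2 difference of -0.17 (SE 0.08, adjusted p = 0.0897). At 2 h the same probe set read 10.82, 10.88 and 10.90 against 11.07, 11.05 and 11.05, again without overlap (log2 difference -0.19, SE 0.08, adjusted p = 0.0862). With a spread that follows the mean signal these differences passed, at adjusted p = 0.0399 and 0.0352. That at 0 h also passed with the methods' t-test (adjusted p = 0.0424).

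The other Hmgb1 probe sets bounded any change of their own targets. The 95% confidence interval at 0 h was -0.29 to 0.17 in 1435324_x_at, -0.30 to 0.02 in 1425048_a_at and -0.41 to 0.05 in 1439463_x_at, so that a rise of the size seen in Hmgb2 lay outside all of them. The weaker 1448235_s_at ran from 6.30 to 7.26 in the 3 normoxic arrays and from 6.50 to 6.65 in the hypoxic arrays at 0 h. Its difference of -0.22 was called without normoxia 0 h replicate 1 (log2 difference -0.46, adjusted p = 0.015). No probe set of this group differed from 1435324_x_at in its effect at 0 h, with adjusted p between 0.458 and 0.797.

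**Figure D3:**
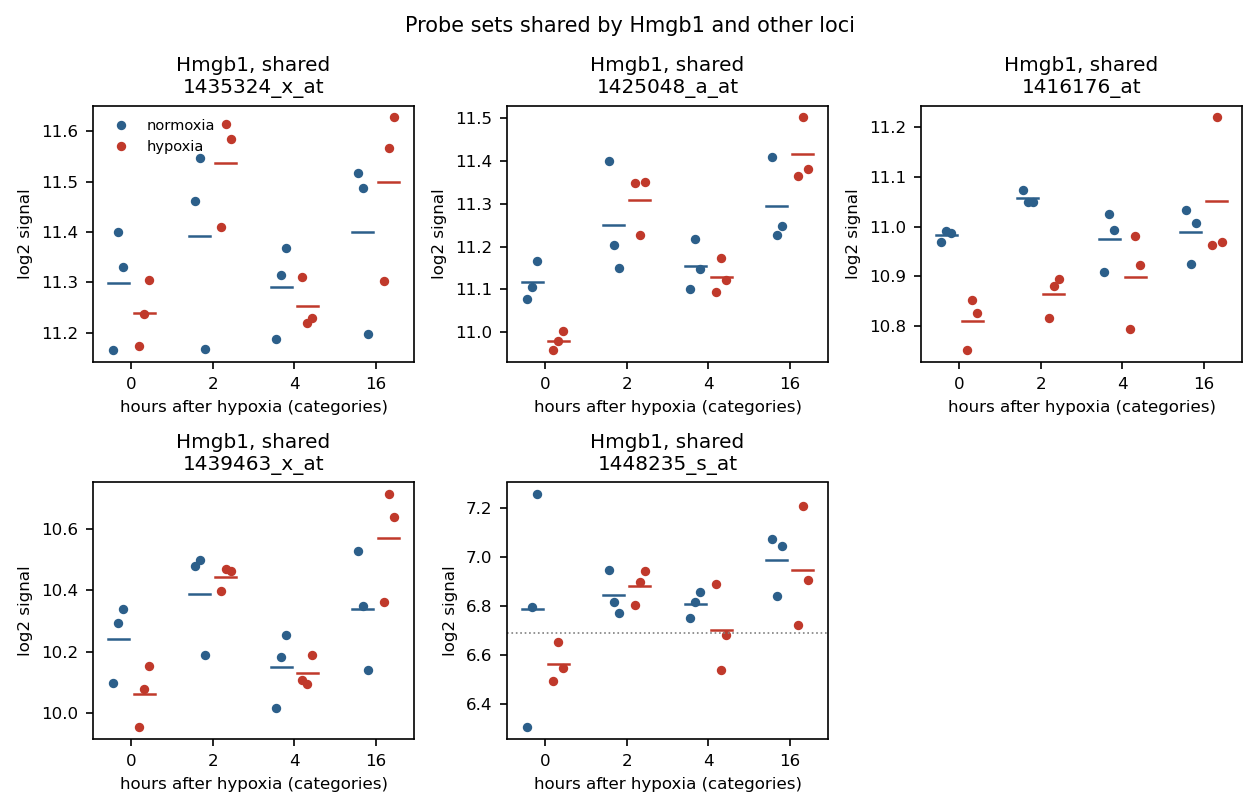
Log2 signal (y axis) of the 5 probe sets that match Hmgb1 and other loci, in the 24 arrays by time of reoxygenation (x axis, evenly spaced categories); points are arrays, lines group means, red hypoxia, blue normoxia, and the dotted line the signal threshold of 6.69. Hypoxic and normoxic arrays overlap at most times and stand apart in 1416176_at at 0 h and 2 h and in 1425048_a_at at 0 h.

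H3f3b in 1430357_at showed the largest rise of the group and lost it within 2 h. In 1430357_at, the probe set given to H3f3b alone, the hypoxic arrays at 0 h read 8.76, 8.61 and 8.61 and the normoxic arrays 6.72, 6.86 and 6.54. The groups were far apart, the normoxic arrays lying at the signal threshold. The signal of 1430357_at was 3.88-fold higher (log2 change 1.96, SE 0.18, adjusted p = 4.35e-08) and ranked 31 from the top of 18799. Its target is not among the RefSeq transcripts. The shared 1420376_a_at, whose target RefSeq lists as an H3f3b transcript, was at 12.45 in normoxia and rose by 0.42 at 0 h. It was still higher by 0.31 at 2 h (adjusted p = 0.00996). By 2 h the hypoxic arrays of 1430357_at read 7.19, 6.73 and 6.90 and the normoxic arrays 6.91, 6.77 and 7.33. They overlapped, with a log2 difference of -0.07 (95% confidence interval -0.43 to 0.30), and at 4 h the difference was 0.15 (adjusted p = 0.746). Real-time PCR of H3f3b in the paper gave a smaller rise at 0 h, which was not significant there.

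At 16 h H3f3b was again above normoxia in each array. The hypoxic arrays read 7.75, 7.88 and 7.42 and the normoxic arrays 7.14, 7.07 and 7.39. The log2 difference of 0.48 (SE 0.18) ranked 46 from the top of 18425 and did not pass the adjustment (adjusted p = 0.77). The shared 1420376_a_at stood below normoxia in each array at 16 h, by a log2 difference of -0.24 that did not pass either.

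H3f3a in 1442087_at moved the other way at 0 h. In 1442087_at, the probe set given to H3f3a alone, the hypoxic arrays read 7.33, 7.18 and 7.38 and the normoxic arrays 7.39, 8.20 and 7.77. The hypoxic arrays lay below the normoxic ones, narrowly so for normoxia 0 h replicate 1, and the fall was 1.40-fold (log2 change -0.49, SE 0.15, adjusted p = 0.0152). Leaving out normoxia 0 h replicate 2, the array with low lens markers, ended the call (log2 change -0.28, adjusted p = 0.131), as did leaving out hypoxia 0 h replicate 2 (-0.43, adjusted p = 0.0618). From 2 h on the log2 differences of 1442087_at were -0.08, -0.08 and 0.03, with overlap at each time. The target of 1442087_at is not among the RefSeq transcripts. At 0 h its normoxic mean signal was 7.79, below the 11.80 to 13.26 of the shared H3.3 probe sets. Whether the H3f3a transcripts as a whole fell was not tested.

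The 5 shared H3.3 probe sets split by direction. In 1420376_a_at the hypoxic arrays at 0 h read 12.78, 12.86 and 12.96 against 12.37, 12.51 and 12.47 in normoxia, and at 2 h 12.62, 12.54 and 12.61 against 12.32, 12.11 and 12.40. Hypoxia was above normoxia at both times, with a log2 change of 0.42 (SE 0.08, adjusted p = 0.000383) and then 0.31 (SE 0.08, adjusted p = 0.00996). Without normoxia 2 h replicate 2 the latter was 0.23 and not called (adjusted p = 0.0647).

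The strongest of the shared H3.3 signals, 1455725_a_at, read 13.47, 13.54 and 13.56 after hypoxia and 13.16, 13.37 and 13.25 in normoxia at 0 h. It rose by a log2 change of 0.26 (SE 0.07, adjusted p = 0.0104), which was not called without normoxia 0 h replicate 1 (0.21, adjusted p = 0.0587). Both 1420376_a_at and 1455725_a_at stood below normoxia in every array at 4 h and 16 h, with log2 differences between -0.11 and -0.24, none of which passed. At 16 h that of 1420376_a_at was -0.24 (SE 0.08, adjusted p = 0.77).

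In contrast, 1423263_at and 1423262_a_at fell. In 1423263_at the hypoxic arrays at 0 h read 11.79, 11.98 and 11.86 against 12.35, 12.26 and 12.26, and at 2 h 11.94, 12.09 and 12.06 against 12.32, 12.26 and 12.34. Hypoxia lay below normoxia at both times, by a log2 change of -0.42 (SE 0.08, adjusted p = 0.000327) and -0.27 (SE 0.08, adjusted p = 0.0199). In 1423262_a_at the values at 0 h were 11.42, 11.52 and 11.39 against 11.76, 11.81 and 11.82, a log2 change of -0.35 (SE 0.08, adjusted p = 0.00229), and at 2 h the change was -0.27 (adjusted p = 0.0299). At 0 h both falls were called with any single array left out. At 2 h they were not called without 1 of several arrays, with adjusted p up to 0.105 for 1423263_at and 0.146 for 1423262_a_at, both without hypoxia 2 h replicate 1. The last probe set of this kind, 1434127_a_at, differed by -0.10 at 0 h (adjusted p = 0.373).

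The split was tested within arrays against 1455725_a_at, an analysis chosen after seeing the data in which 11.7% of all such probe sets differed at 0 h. At 0 h the effect in 1423263_at was lower by a log2 difference of -0.68 (SE 0.10, adjusted p = 6.41e-05) and that in 1423262_a_at by -0.61 (SE 0.10, adjusted p = 0.000122). The effect in 1442087_at of H3f3a was lower by -0.75 (SE 0.14, adjusted p = 0.000706), and that in 1430357_at of H3f3b was higher by 1.70 (SE 0.18, adjusted p = 6.55e-07). The probe set 1420376_a_at did not pass against it (0.16, adjusted p = 0.332), and 1434127_a_at did (-0.36, adjusted p = 0.023) but not when any 1 of 4 arrays at 0 h was left out. In all, 6 of the 11 Hmgb1, Hmgb2 and H3.3 probe sets tested this way differed at 0 h. The 6 include the 1437313_x_at probe set of Hmgb2 at adjusted p = 0.0486, which was called in 11 of 33 alternatives, and without normoxia 0 h replicate 1 neither it (adjusted p = 0.208) nor 1434127_a_at (adjusted p = 0.0817) passed. At 2 h only 1423263_at and 1423262_a_at passed, with log2 differences of -0.44 and -0.43 (adjusted p = 0.0262 and 0.0211). Neither passed without hypoxia 2 h replicate 1 (adjusted p = 0.187 and 0.176). The share of all such probe sets that differed at 2 h was not computed.

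**Figure D4:**
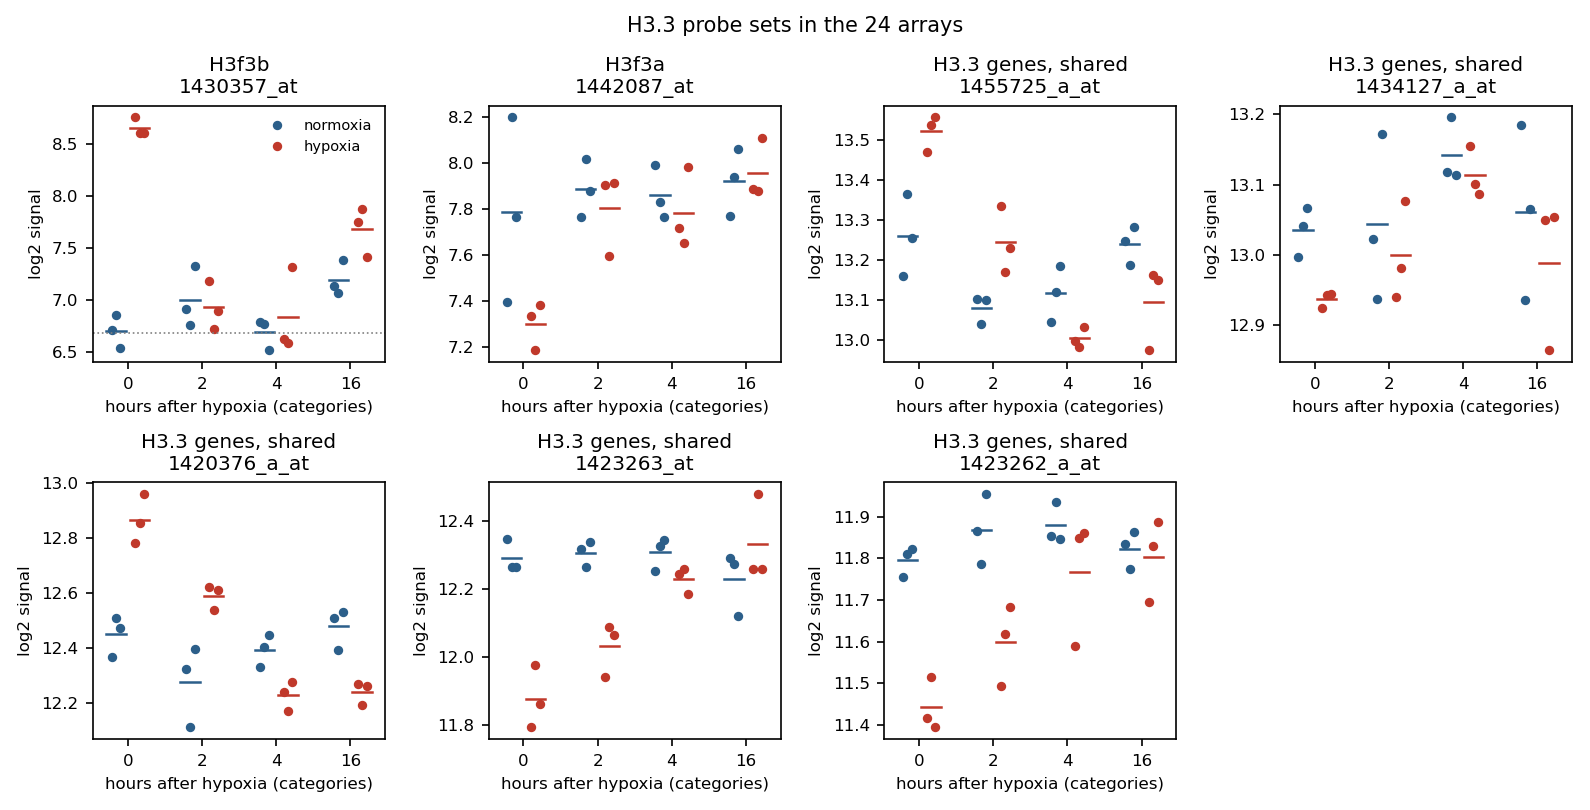
Log2 signal (y axis) of the H3f3b, H3f3a and shared H3.3 probe sets in the 24 arrays by time of reoxygenation (x axis, evenly spaced categories); points are arrays, lines group means, red hypoxia, blue normoxia, and the dotted line the signal threshold of 6.69. At 0 h the hypoxic arrays lie above the normoxic ones for H3f3b (8.61 to 8.76 against 6.54 to 6.86), 1455725_a_at and 1420376_a_at, and below them in the other 4 panels.

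Several of the early effects differed from those after longer reoxygenation. The effect of hypoxia at 0 h differed from that at 2 h in 1 of 15 probe sets, beside 8.21% of all tested, from that at 4 h in 6 of 15, beside 16.9%, and from that at 16 h in 8 of 15, beside 20.6%. H3f3b gave the 1 difference from 2 h, with a log2 difference of 2.02 between the effects (SE 0.25, adjusted p = 3.43e-05). For Hmgb2 in 1452534_a_at the effect at 0 h was larger than at 2 h by 0.59, which did not pass (adjusted p = 0.181) but did without hypoxia 2 h replicate 1 (0.87, adjusted p = 0.0124). Against 4 h it was larger by 2.30 (SE 0.26, adjusted p = 5.02e-06), the sum of a rise and a value below normoxia. For Hmgb3 the effect at 0 h minus that at 2 h was -0.26 (adjusted p = 0.22), so that the higher value at 2 h did not differ from that at 0 h by this test.

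In normoxia alone none of the 15 probe sets was called among the 4 collection times by limma, beside 3.54% of all tested. The lowest unadjusted p of the F test were 0.00262 and 0.0434 in 1452534_a_at and 1437313_x_at, both of Hmgb2. They were followed by 0.00766 in Hmgb3 and 0.0228 in 1430357_at, within the range of these 2. The share of such values over all probe sets was not computed, so no more is read from them. Nearest to a call was Hmgb2 in 1452534_a_at (adjusted p = 0.0588), whose normoxic means were 9.96, 9.27, 9.30 and 9.69 in order of time. This call count became 1 without normoxia 0 h replicate 1, hypoxia 2 h replicate 1 or hypoxia 2 h replicate 2. Its 12 normoxic arrays ran from 9.08 through a median of 9.57 to 10.22, below every hypoxic array at 0 h. The neighbouring means at 2 h and 4 h lay within their spread. Normoxic H3f3b ran from 6.52 through 6.82 to 7.39 and normoxic Hmgb3 from 8.78 through 8.98 to 9.15.

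The counts of calls in the related gene lists stand beside the shares over all probe sets tested, 32.4% at 0 h (15.2% higher, 17.2% lower) and 16.6% at 2 h (9.19% higher, 7.38% lower). Most lists are small, and nothing is said of a list from a count near these shares. Of the other HMG proteins, 10 tested genes gave no call at 0 h by limma, or 1 without normoxia 2 h replicate 3, and 3 fell at 2 h. The strongest signal at 0 h was that of Hmgn1, a nucleosome-binding protein, at 13.38 after hypoxia and 13.42 in normoxia (adjusted p = 0.673). Those that fell were Hmgn5 (log2 change -0.54, adjusted p = 0.0209), Hmg20b (-0.47, adjusted p = 0.0118) and Hmgn3 (-0.32, adjusted p = 0.0131), the first and last of them nucleosome-binding proteins. Without 1 array the count at 2 h lay between 0 and 3, being 0 without normoxia 2 h replicate 3. The median change over the list was -0.08 at 0 h.

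Of 14 tested H3 chaperones and remodellers, 1 rose and 3 fell at 0 h, 4 of 14 beside the 32.4% of all probe sets. Nasp, a chaperone of soluble H3 and H4, fell by a log2 change of -0.68 (adjusted p = 1.97e-05), Atrx, which places H3.3 into heterochromatin with Daxx, of -0.42 (adjusted p = 0.00409) and Ubn1 of the HIRA complex of -0.32 (adjusted p = 0.0361). The remodeller Chd2 rose by 0.41 (adjusted p = 0.003). At 2 h 4 rose and 1 fell. Asf1a, which hands H3 and H4 to the HIRA complex, rose by 0.40 (adjusted p = 0.00378), Supt16 of the FACT complex by 0.35 (adjusted p = 0.00742), Dek by 0.26 (adjusted p = 0.0277) and Daxx by 0.26 (adjusted p = 0.0205), while Atrx was still down by a log2 change of -0.35 (adjusted p = 0.0276). With 1 array left out, 2 to 5 rose at 2 h, 2 without hypoxia 2 h replicate 1, normoxia 2 h replicate 1 or normoxia 2 h replicate 3. The rise of Chd2 was joined by 1 more call at 0 h without any 1 of 4 arrays, namely normoxia 2 h replicate 2 or 3, hypoxia 16 h replicate 3 or normoxia 16 h replicate 3, and the fall of Atrx at 2 h was not called without hypoxia 2 h replicate 1 or 2 or normoxia 2 h replicate 3. Hira itself was at 7.04 after hypoxia and 6.92 in normoxia at 0 h (adjusted p = 0.321).

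Calls in other histone genes went both ways, as those over all probe sets did (15.2% higher and 17.2% lower at 0 h). Among 7 tested variants made outside of replication, H2az1 rose (log2 change 0.35, adjusted p = 0.00285) while H2az2 (-0.71, adjusted p = 2.49e-06) and Macroh2a2 (-0.28, adjusted p = 0.0242) fell at 0 h, the count of falls being 1 without hypoxia 0 h replicate 3 or normoxia 0 h replicate 3 and that of rises 2 without normoxia 0 h replicate 1. At 2 h H2az1 still rose (0.27, adjusted p = 0.0311) and H2az2 still fell (-0.28, adjusted p = 0.0335), each lost without any 1 of at least 4 of the 6 arrays of that time. Of 4 tested genes in the list of replication-dependent histones, which was filled by gene symbol, H2bc21 (-0.46, adjusted p = 0.00393) and H2bc18 (-0.32, adjusted p = 0.0361) fell. Only 1 of them did without hypoxia 0 h replicate 1, hypoxia 0 h replicate 2 or normoxia 0 h replicate 2. Whether each gene of this list is made only during replication was not tested. At 2 h H2bc18 (-0.42, adjusted p = 0.0166) and the linker histone H1f2 (-0.33, adjusted p = 0.041) fell, and neither did without hypoxia 2 h replicate 1 or normoxia 2 h replicate 2 or 3. Of 15 proliferation markers on the array only 4 reached the signal threshold. Mcm2 of the replicative helicase (0.63, adjusted p = 0.000326) and Ccna2, cyclin A2 (0.48, adjusted p = 0.0164), rose and Pcna, the polymerase clamp (-0.24, adjusted p = 0.0278), fell, with 1 rising without hypoxia 0 h replicate 1 or 3 or normoxia 0 h replicate 1, and none falling without any 1 hypoxic array at 0 h or normoxia 0 h replicate 1. At 2 h Mcm2 (0.45, adjusted p = 0.0116) and Mcm5 (0.36, adjusted p = 0.0298) rose, neither of them without hypoxia 2 h replicate 1 or normoxia 2 h replicate 2, and at 4 h Mcm5 rose (0.51, adjusted p = 0.0186).

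Among the receptors and partners of HMGB1, 3 of 12 reached the signal threshold at 0 h. Ager, which encodes RAGE, was called higher (7.38 ± 0.11 against 6.62 ± 0.27, mean ± SD of 3 arrays each, log2 change 0.75, adjusted p = 2e-04). Its normoxic mean was under the signal threshold, so Ager had to differ to be tested and no more is read from its call. At 2 h both means were under the threshold. Without normoxia 0 h replicate 3 the number of rises in this list was 2. At 2 h the chemokine Cxcl12 fell (-0.33, adjusted p = 0.0189), a call lost without hypoxia 2 h replicate 3 or normoxia 2 h replicate 2 or 3. Of 4 tested members of the SET complex, Apex1, an endonuclease of base excision repair, rose (0.43, adjusted p = 0.00307), and without normoxia 0 h replicate 1 the count was 2. Of 10 genes that export, acetylate or otherwise modify HMGB1, 1 rose and 4 fell, beside 32.4% called over all probe sets and 17.2% lower. The exportin gene Xpo1 rose by 0.86 (adjusted p = 2.4e-06), and Parp1 (-0.47, adjusted p = 7.02e-05), Hdac2 (-0.43, adjusted p = 0.006), Crebbp (-0.34, adjusted p = 0.0255) and Hdac1 (-0.20, adjusted p = 0.0261) fell. Without hypoxia 0 h replicate 3 the number that fell was 2, near that share, and without normoxia 0 h replicate 2 the number that rose was 2. At 2 h Xpo1 rose (0.34, adjusted p = 0.0317) and Hdac2 fell (-0.34, adjusted p = 0.0457), both lost without hypoxia 2 h replicate 1 or normoxia 2 h replicate 2 or 3 among others, and at 4 h Parp1 rose (0.32, adjusted p = 0.0324).

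**Figure D5:**
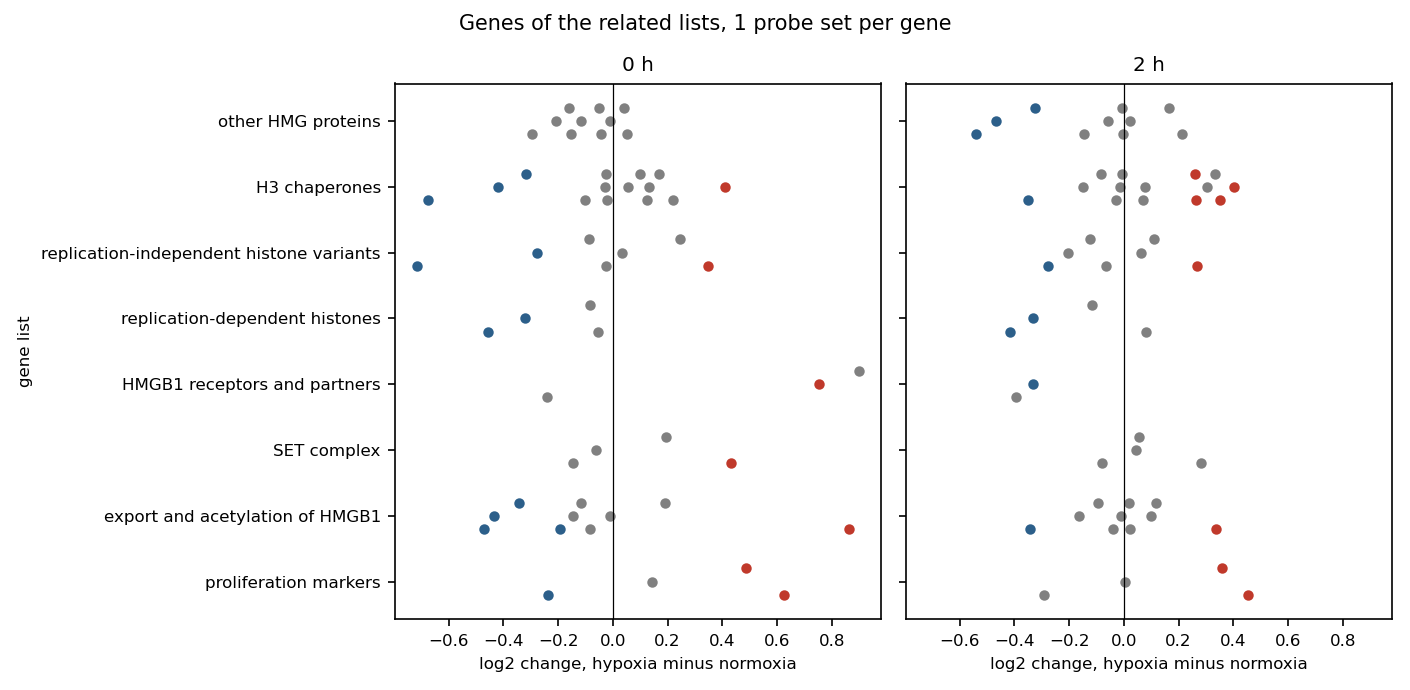
Log2 change (hypoxia minus normoxia, x axis) of the tested genes of 8 related lists (y axis) at 0 h and 2 h, each point 1 gene by its strongest probe set; red marks genes called higher, blue genes called lower and grey genes not called. Most genes lie within 0.5 of 0 at both times, and H2az2 (-0.71), Nasp (-0.68), Xpo1 (0.86) and Ager (0.75) lie farthest out among those called at 0 h. The mean of Ager reached the signal threshold only in hypoxia, so that it had to differ to be tested.

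Genes with the most similar course over the 24 arrays were looked up for each gene, as a description, since the points share groups and the effect of hypoxia. For Hmgb2 in 1452534_a_at they were Xpo1 (Pearson's r = 0.959), Thumpd1 (0.952) and Gtpbp10 (0.952). For Hmgb3 they were Psme3ip1 (0.945), Smim14 (0.942) and Ddx50 (0.942), all of which had a larger change at 2 h than at 0 h, as Hmgb3 had. For H3f3b in 1430357_at they were Eif5 (0.894), Ppp3ca (0.892) and Tmem150c (0.876), and for H3f3a in 1442087_at Man2b1 (0.939), Man2a2 (0.901) and Cnot3 (0.897). Tmem150c had log2 changes of 1.51 at 0 h and -0.01 at 2 h, beside 1.96 and -0.07 in H3f3b. Since all these genes were picked for a similar course, such shared changes follow from the choice.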

How the data were processed

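Retinal RNA was measured on 24 one-colour Affymetrix mouse arrays, 3 per group. The deposited table holds log2 signals that are RMA values per the labels. RMA subtracts background, equalizes the arrays and summarizes the probes of a probe set. Its version is not given in the sources used here. The authors took their own gene lists from GCRMA values, another summary of the same arrays, which were not used here, and the t-test of their methods was run here on the deposited RMA values. Equalizing the arrays removes any change shared by all transcripts, and probes that match near-identical loci cannot separate them. On arrays their number and the signal over background limit the precision, and the array medians lay between 5.79 and 5.83.

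Here 64 control probe sets were removed. A linear model with 1 mean per group was fitted to the 45037 others over all arrays with limma 3.58.1 in R 4.3.3 (16 residual degrees of freedom, eBayes), and hypoxia was contrasted with normoxia at each time. Benjamini-Hochberg adjustment covered all probe sets tested at a time, and a call is an adjusted p under 0.05. Pools are the replicates. Effects were compared between times as contrasts of contrasts, normoxic groups by an F test, and probe sets of a gene by their difference within each array. The code was tested on simulated data.

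Gene names came from the array annotation, in which 34945 probe sets had 1 symbol, 932 several and 9160 none. A list gene is represented by its strongest probe set of 1 gene. Named are all probe sets of the 5 genes, up to 4 called genes per list and time with the largest change (the strongest signal where none was called), and the 3 genes per probe set with the highest Pearson's r. Hira, Daxx and Hdac1 were chosen after their values were seen, and the promoters shown are those of genes with a probe set of their own. The members and lists were chosen with earlier results of these data known. The lists were other HMG proteins, H3 chaperones, replication-independent variants, replication-dependent histones, HMGB1 receptors and partners, SET complex, export and acetylation of HMGB1, proliferation markers and markers of 8 cell types. Of the latter, those not given in the report had at 0 h, as called genes of those tested, 0 of 6 for Mueller glia, 0 of 2 for bipolar cells, 0 of 8 for lens (8 when normoxia 0 h replicate 3 was left out, 4 for its replicate 1 and 2 for hypoxia 0 h replicate 3), 1 of 3 for endothelium (Kdr, lower), 0 of 3 for microglia and macrophages and none tested for erythroid cells.

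Same-numbered hypoxic and normoxic arrays were checked for pairing by the correlation of their deviations from the group means, which lay between -0.227 and 0.237 and above 0.1 in 2 of 12 pairs, so the numbers were not used as pairs. Alternatives were the signal filter, normalization, spread estimate, array weights, a replicate block, the arrays in the fit, the methods' t-test and leaving out arrays. Figures were drawn with matplotlib.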

Additional observations from a re-analysis of the deposited data

Results flagged for a closer look

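Effects of hypoxia that differed between 0 h and a later time, by the contrast of the effects in the same model, were the following, each as the effect at 0 h minus the later effect on the log2 scale.

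H3f3b in 1430357_at differed by 2.02 from 2 h (adjusted p = 3.43e-05), by 1.81 from 4 h (adjusted p = 3.73e-05) and by 1.47 from 16 h (adjusted p = 0.00027). Hmgb2 differed from 4 h by 2.30 in 1452534_a_at (adjusted p = 5.02e-06) and by 1.78 in 1437313_x_at (adjusted p = 0.000265), and from 16 h by 2.07 (adjusted p = 1.1e-05) and 1.67 (adjusted p = 0.000416). Hmgb3 in 1416155_at differed from 16 h by 0.38 (adjusted p = 0.0315), which was not called without any 1 of 7 arrays (0.32 to 0.36, adjusted p up to 0.0867).

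Among the shared H3.3 probe sets, 1455725_a_at differed by 0.37 from 4 h (adjusted p = 0.0184, and 0.0515 without normoxia 0 h replicate 1) and by 0.40 from 16 h (adjusted p = 0.00949), and 1420376_a_at by 0.58 (adjusted p = 0.00107) and 0.65 (adjusted p = 0.000326). The probe set 1423263_at differed by -0.34 from 4 h (adjusted p = 0.0395) and by -0.52 from 16 h (adjusted p = 0.00212), and 1423262_a_at by -0.33 from 16 h (adjusted p = 0.0471). The difference of 1423263_at from 4 h was lost without any 1 of the 6 arrays at 0 h except hypoxia 0 h replicate 2 and without any of the 6 at 4 h (adjusted p 0.0506 to 0.103), and that of 1423262_a_at from 16 h without most single arrays (adjusted p up to 0.108).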

How the results depend on the processing

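No called value changed direction under any alternative for which it was computed. Values that were not called did change sign where they lay near 0, among them H3f3b at 2 h (-0.07, from -0.19 to 0.10 over the alternatives) and at 4 h (0.15, from -0.09 to 0.28) and Hmgb3 at 16 h (0.03, from -0.04 to 0.09), and none of these became a call. The 9 probe sets called at 0 h were 8 or 9 with any 1 array left out, and 9, or a number within 1.5 times of it, under every other alternative. At 2 h the 6 called became 2 with the 6 arrays of that time alone and 1 with the methods' t-test, and lay between 3 and 6 with 1 array left out, being 3 without hypoxia 2 h replicate 1. At 4 h the 1 called became 0 with a replicate block within each time point, with the 6 arrays alone and with the t-test, and lay between 0 and 2 with 1 array left out, being 0 without hypoxia 4 h replicate 1 and 2 without hypoxia 2 h replicate 1. At 16 h it was 0 throughout. The 1 effect that differed between 0 h and 2 h became 2 with no signal filter, which admits 1438307_at. The number was between 1 and 3 with 1 array left out, being 3 without hypoxia 2 h replicate 1. The 6 that differed from 4 h were 5 or 6 and the 8 that differed from 16 h were 6 to 9. Among the normoxic groups the 0 became 1 with array quality weights and lay between 0 and 1 without normoxia 0 h replicate 1 or 1 of 2 hypoxic arrays at 2 h. The 1 Hmgb2 probe set compared with its reference, 1437313_x_at, gave 0 calls at 0 h. It was called with array quality weights, quantile normalization, both arrays that stand apart left out, and a robust spread that follows the mean signal (1 each). With 1 array left out the count lay between 0 and 1. At 2 h 1437313_x_at was not called under any alternative (lowest adjusted p = 0.0695). The count of 1 at 2 h with no signal filter came from 1438307_at, which was under the signal threshold. With the replicate block the probe sets called in order of time numbered 9, 4, 0 and 0, and 1, 5 and 6 effects differed between 0 h and the later times. Samples of 1 number share only that number. The block could not be fitted for the normoxic groups and was not run there. The cause of these changes was not tested. The methods' t-test was run on the RMA values of the 6 arrays of each time. Its adjusted p at 0 h was 0.0625 for Hmgb3, 0.236 for H3f3a and 0.0725 for 1455725_a_at. At 2 h it was 0.154 for Hmgb2 in 1452534_a_at. For 1416176_at, which limma did not call, it was 0.0424 at 0 h. Where signals lie near 6.69, as for H3f3b in normoxia, a fold change is limited by the signal over background.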
